A study of Rattus norvegicus with 8 samples.

Results

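The genes described here encode the Notch receptors, their ligands, the nuclear effector of the pathway and its target genes. They are the receptors Notch1 (ENSRNOG00000019322), Notch2 (ENSRNOG00000018835), Notch3 (ENSRNOG00000004346) and Notch4 (ENSRNOG00000000442), the ligands Jag1 (ENSRNOG00000007443), Jag2 (ENSRNOG00000013927) and Dll4 (ENSRNOG00000014011), the effector Rbpj (ENSRNOG00000046327) and the targets Heyl (ENSRNOG00000015318) and Hes1 (ENSRNOG00000001720). They were chosen by name, and each of the 10 names matched exactly 1 of the 32623 rat genes listed in the count tables. All 10 passed the minimum on expression used for testing, as did 11682 genes in all.

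Notch is a receptor that is cut when it binds a ligand on a neighboring cell. Proteases of the ADAM family and then the γ-secretase complex release the intracellular part, which enters the nucleus, joins the DNA-binding protein RBPJ and the Mastermind coactivators, and switches on genes of the Hes and Hey families. In vessels Notch3 is known as the receptor of mural cells, that is smooth muscle cells and pericytes, in which Heyl is a known target, while Notch4 and Dll4 are known for their expression in endothelial cells. Jag1 on the endothelium signals to the mural cells around it.

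The RNA came from the outflow vein of an arteriovenous fistula (AVF), made in Sprague Dawley rats of both sexes by joining the epigastric vein to the side of the femoral artery, and was collected on day 21. In every rat the vein next to the anastomosis was wrapped at surgery in a bilayer nanofiber scaffold with an outer layer of poly(lactic acid) and an inner layer of poly(lactic-co-glycolic acid). In the BAPN group (n = 4, 3 females and 1 male) the inner layer carried β-aminopropionitrile, an irreversible inhibitor of the lysyl oxidases, the enzymes that crosslink collagen and elastin. In the Vehicle group (n = 4, 2 females and 2 males) it carried no drug. Both groups therefore have a fistula and a scaffold, no unoperated vein enters the comparison, and the labels give the animals' sex but not their age. Each library is the RNA of a whole vein segment, in which fewer cells of a type and less RNA per cell cannot be told apart.

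The authors depleted ribosomal RNA and counted reads on genes, with 45039451 to 52241007 reads per library in the BAPN group and 19548203 to 22442050 in the Vehicle group. Depth separates the groups and cannot be told apart from treatment. When every library was thinned to 19548203 reads, 6 of the 10 genes were called, as they were at full depth. Levels are TMM-normalized read counts on a common library size (CPM), a log2 fold change below 0 means lower expression with BAPN, and the FDR is the p of edgeR's quasi-likelihood test adjusted over all tested genes and called below 0.05.

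6 of the 10 genes fell with BAPN, namely Notch1, Notch2, Notch3, Jag1, Heyl and Hes1, and none rose. By edgeR 9.25% of all tested genes were called lower and 7.5% higher, or 16.8% in either direction. DESeq2 called 8 of the 10 lower, adding Jag2 and Dll4, against 15.1% of all tested genes lower and 12.3% higher, and like edgeR it called 0 of the 10 higher. At an unadjusted edgeR p below 0.05, 8 were lower and 0 higher, against 18.4% and 17.4% of all tested genes. In 7 of the 10 genes every BAPN-treated vein lay below every vehicle control, which held for 11.9% of all tested genes, and in 0 did every BAPN-treated vein lie above, against 12.7%. The median log2 fold change of the 10 genes was -0.92, and that of all tested genes was 0.02. Only Rbpj had a log2 fold change above 0. Of these genes, Notch3 alone was called under all 18 alternative settings, and with sex as a covariate the number called lower was 2. It was 2 without BAPN 3, BAPN 4 or Vehicle 1, 3 without BAPN 2, Vehicle 3 or Vehicle 4, 5 without BAPN 1 and 7 without Vehicle 2.

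**Figure D1:**
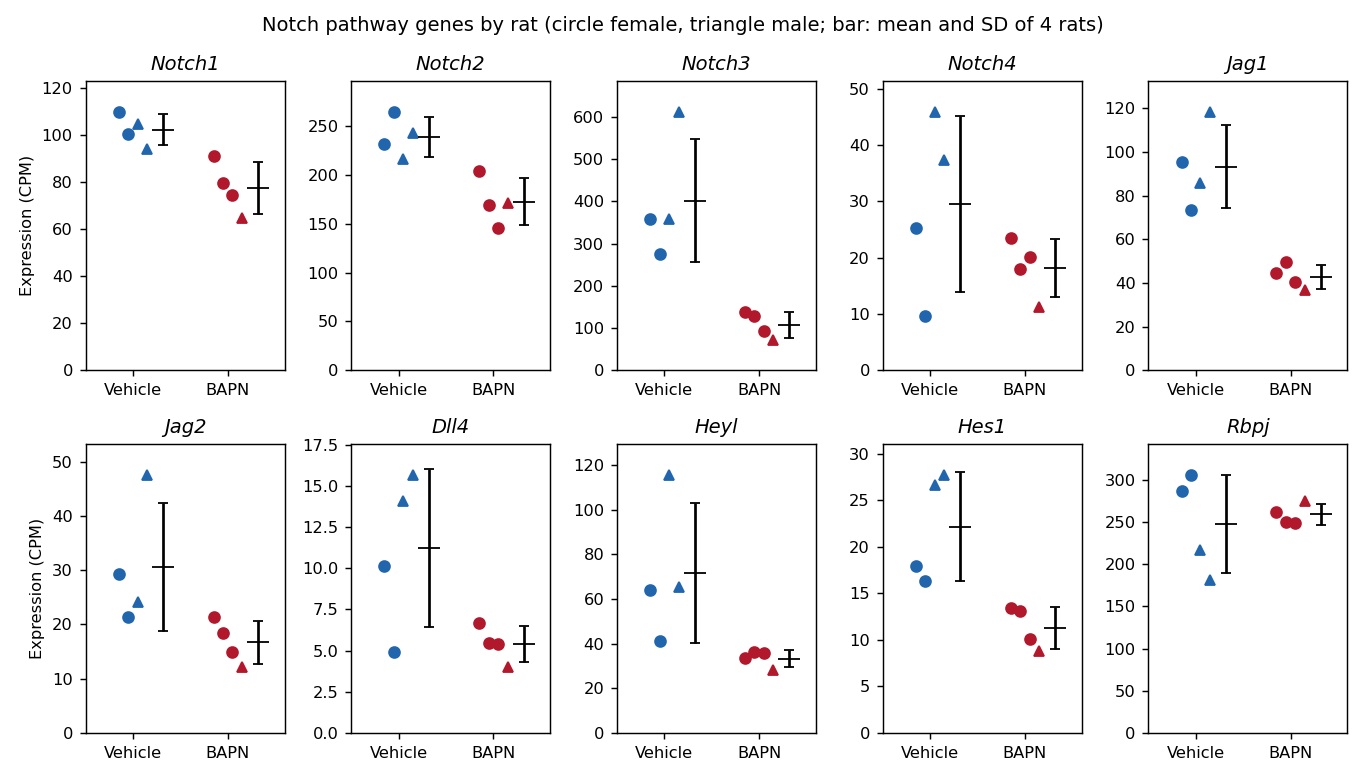
Expression of the 10 Notch genes in each rat, with 1 panel per gene, the CPM on the y axis and the groups on the x axis. Points are rats (females and males have their own marks), and lines with bars are the mean and SD of 4 rats. The groups separate in 7 panels and overlap for Notch4, Dll4 and Rbpj.

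Among the receptors, Notch3 had the largest log2 fold change. It was at 137.5, 128.8, 92.95 and 72.05 CPM in BAPN 1 to 4 and at 358.6, 276.3, 358.8 and 611.4 CPM in Vehicle 1 to 4. Every BAPN-treated vein was below every vehicle control, the lowest vehicle value was that of Vehicle 2 and the highest that of Vehicle 4. Notch3 fell from 401 ± 145 CPM (SD, n = 4) to 108 ± 30.7 CPM (SD, n = 4), a log2 fold change of -1.90 with a standard error of 0.27 (edgeR FDR 0.0089). An exact two-sided permutation test of this gene alone gave p = 0.0286, which no arrangement of 4 rats against 4 can go below. Leaving out each rat in turn moved the log2 fold change between -2.04 and -1.62. In the females (3 with BAPN and 2 with vehicle) it was -1.41 and still called (edgeR FDR 0.0475).

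Notch1 and Notch2, receptors found in many cell types, fell by less. Notch1 was at 91.2, 79.4, 74.5 and 64.8 CPM in BAPN 1 to 4 and at 109.8, 100.6, 104.7 and 94.1 CPM in Vehicle 1 to 4 (77.5 ± 10.95 against 102 ± 6.63 CPM, SD, n = 4 each). Notch2 was at 204, 169, 146 and 172 CPM with BAPN and at 232, 265, 216 and 243 CPM with vehicle (173 ± 23.9 against 239 ± 20.4 CPM, SD, n = 4 each). In neither gene did the groups overlap, although BAPN 1 came close to Vehicle 4 for Notch1. The log2 fold change was -0.40 for Notch1 (standard error 0.12, edgeR FDR 0.0480) and -0.47 for Notch2 (standard error 0.13, edgeR FDR 0.0416). Both calls were lost when any rat other than BAPN 1 was left out (edgeR FDR up to 0.122 for Notch1 and 0.103 for Notch2) and with sex as a covariate (edgeR FDR 0.0535 and 0.0704). Among females alone Notch1 was at -0.36 (edgeR FDR 0.181) and Notch2 at -0.52 (edgeR FDR 0.154).

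Notch4, the endothelial receptor, did not pass the test. It was at 23.5, 17.99, 20.0 and 11.3 CPM in BAPN 1 to 4 and at 25.2, 9.69, 45.8 and 37.3 CPM in Vehicle 1 to 4. Vehicle 2 had the lowest value of all 8 rats, so the groups overlapped although the other vehicle controls lay above all BAPN-treated veins. The log2 fold change was -0.70 with a standard error of 0.43 (edgeR FDR 0.251). Without Vehicle 2 it was -0.99 and called (edgeR FDR 0.0393), without Vehicle 3 it was -0.40 (edgeR FDR 0.521), and among females alone it was 0.23 (edgeR FDR 0.728).

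Of the ligands, Jag1 fell. It was at 44.5, 49.8, 40.4 and 36.8 CPM in BAPN 1 to 4 and at 95.4, 73.5, 86.0 and 118 CPM in Vehicle 1 to 4, with no overlap. The means were 42.9 ± 5.56 and 93.3 ± 18.9 CPM (SD, n = 4 each), and the log2 fold change was -1.12 with a standard error of 0.16 (edgeR FDR 0.00794). The call held in all 8 fits that dropped 1 rat, with the edgeR FDR at most 0.0291, and it was lost among females alone (edgeR FDR 0.0613).

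Jag2 and Dll4, the other ligands among the 10 genes, did not pass edgeR's test. Jag2 was at 21.39, 18.4, 14.9 and 12.2 CPM in BAPN 1 to 4 and at 29.4, 21.40, 24.1 and 47.6 CPM in Vehicle 1 to 4, so that BAPN 1 and Vehicle 2 almost met (log2 fold change -0.87, standard error 0.26, edgeR FDR 0.0546). Dll4, an endothelial ligand, was at 6.70, 5.44, 5.40 and 4.01 CPM with BAPN and at 10.2, 4.89, 14.1 and 15.7 CPM with vehicle (log2 fold change -1.06, standard error 0.35, edgeR FDR 0.0610). Vehicle 2 lay inside the BAPN range for Dll4 and the other vehicle controls lay above it. Without Vehicle 2 both genes were called, Jag2 at -1.01 (edgeR FDR 0.0351) and Dll4 at -1.30 (edgeR FDR 0.0144). Without Vehicle 4, Jag2 was at -0.58 (edgeR FDR 0.108), and among females alone Jag2 was at -0.48 (edgeR FDR 0.236) and Dll4 at -0.36 (edgeR FDR 0.552). Dll4 was the gene with the fewest reads among the 10, with 99 in Vehicle 2 and 192 to 334 in the other libraries.

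Rbpj, the DNA-binding protein through which all 4 receptors act, gave values that overlapped widely. It was at 262, 250, 249 and 275 CPM in BAPN 1 to 4 and at 286, 306, 217 and 181.5 CPM in Vehicle 1 to 4. Vehicle 1 and Vehicle 2 were above and Vehicle 3 and Vehicle 4 below all BAPN-treated veins. The log2 fold change was 0.065 with a standard error of 0.18 (edgeR FDR 0.806), and it was -0.058 without Vehicle 4 and -0.22 among females alone. The related genes Rbpjl and Rbpjl2 are listed as genes of their own in the count tables.

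Both targets among the 10 genes fell. Heyl, a transcriptional repressor of the Hey family, was at 33.5, 36.2, 35.7 and 28.0 CPM in BAPN 1 to 4 and at 64.2, 41.1, 115.7 and 65.4 CPM in Vehicle 1 to 4. The groups did not overlap, and Vehicle 3 was far above the other vehicle controls. The means were 33.4 ± 3.78 and 71.6 ± 31.5 CPM (SD, n = 4 each), with a log2 fold change of -1.10 and a standard error of 0.27 (edgeR FDR 0.0281). Without Vehicle 3 it was -0.77 and still called (edgeR FDR 0.0395). Heyl was no longer called without BAPN 1 (FDR 0.0554), BAPN 2 (FDR 0.0502), BAPN 3 (FDR 0.0668), BAPN 4 (FDR 0.0668) or Vehicle 1 (FDR 0.0631).

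Hes1, a repressor that many cell types use, was at 13.4, 13.1, 10.1 and 8.79 CPM in BAPN 1 to 4 and at 17.9, 16.3, 26.7 and 27.8 CPM in Vehicle 1 to 4. Again all vehicle controls were above all BAPN-treated veins, with the vehicle females at the lower end of their group. Hes1 fell from 22.2 ± 5.88 to 11.3 ± 2.26 CPM (SD, n = 4 each), a log2 fold change of -0.97 with a standard error of 0.22 (edgeR FDR 0.0244). It was no longer called without BAPN 3 (FDR 0.0652), BAPN 4 (FDR 0.0576), Vehicle 1 (FDR 0.0516), Vehicle 3 (FDR 0.0544) or Vehicle 4 (FDR 0.0542). With sex as a covariate neither Heyl (FDR 0.0726) nor Hes1 (FDR 0.0639) was called, and among females alone Heyl was at -0.58 (edgeR FDR 0.151) and Hes1 at -0.49 (edgeR FDR 0.202).

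RBPJ binds DNA at sites with the core TGGGAA, and the upstream sequences of the genes whose levels are set beside each other here are shown for that core. Of the 10 genes, 9 matched the RefSeq promoter table of build GRCr8 and Dll4 did not. The 250 bases before the annotated start were searched on both strands, for TGGGAA and for the longer GTGGGAA that contains it. The sequences of the target genes Hes1, Heyl and Hey2 and of Notch3 follow, 5′ to 3′ on the strand of the gene, with TGGGAA on either strand in capitals. They lie at chr11:84213046-84213295 (Hes1, minus strand), chr5:140793021-140793270 (Heyl, plus strand), chr1:28640850-28641099 (Hey2, plus strand) and chr7:11834586-11834835 (Notch3, minus strand).
Hes1: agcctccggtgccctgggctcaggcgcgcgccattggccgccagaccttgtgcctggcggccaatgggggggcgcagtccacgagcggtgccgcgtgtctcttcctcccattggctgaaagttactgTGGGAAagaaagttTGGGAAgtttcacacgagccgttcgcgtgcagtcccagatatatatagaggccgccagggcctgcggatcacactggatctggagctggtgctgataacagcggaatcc
Heyl: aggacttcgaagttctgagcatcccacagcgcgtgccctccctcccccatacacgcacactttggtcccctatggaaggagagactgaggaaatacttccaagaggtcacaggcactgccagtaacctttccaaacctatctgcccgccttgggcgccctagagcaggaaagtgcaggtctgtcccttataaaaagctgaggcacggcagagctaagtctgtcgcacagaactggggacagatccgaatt
Hey2: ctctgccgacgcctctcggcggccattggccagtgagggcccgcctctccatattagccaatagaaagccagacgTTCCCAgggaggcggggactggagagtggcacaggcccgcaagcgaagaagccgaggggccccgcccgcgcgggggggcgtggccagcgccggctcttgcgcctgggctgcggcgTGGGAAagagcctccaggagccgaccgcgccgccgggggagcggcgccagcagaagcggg
Notch3: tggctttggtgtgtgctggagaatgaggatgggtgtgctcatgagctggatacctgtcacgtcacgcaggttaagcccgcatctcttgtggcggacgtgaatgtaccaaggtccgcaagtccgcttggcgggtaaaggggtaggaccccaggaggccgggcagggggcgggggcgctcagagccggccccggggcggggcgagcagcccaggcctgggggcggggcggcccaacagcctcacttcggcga

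The window of Hes1 held 2 copies of TGGGAA, beginning 123 and 109 bases upstream of the start, and 1 of them was part of GTGGGAA. Hey2 also held 2, with the base farthest from the start 175 and 60 bases upstream and on opposite strands, and 1 of them was part of GTGGGAA. The Heyl and Notch3 windows held none. Among the 9 matched genes, Notch4, Hes1 and Rbpj held at least 1 TGGGAA. Of 27457 promoter windows of this length, with 1 per gene, 21.6% held at least 1 TGGGAA, 2.61% held 2 or more and 5.22% held GTGGGAA. A match is a stretch of letters and not a measured site, and no match says only that these letters are not in this window.

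**Figure D2:**
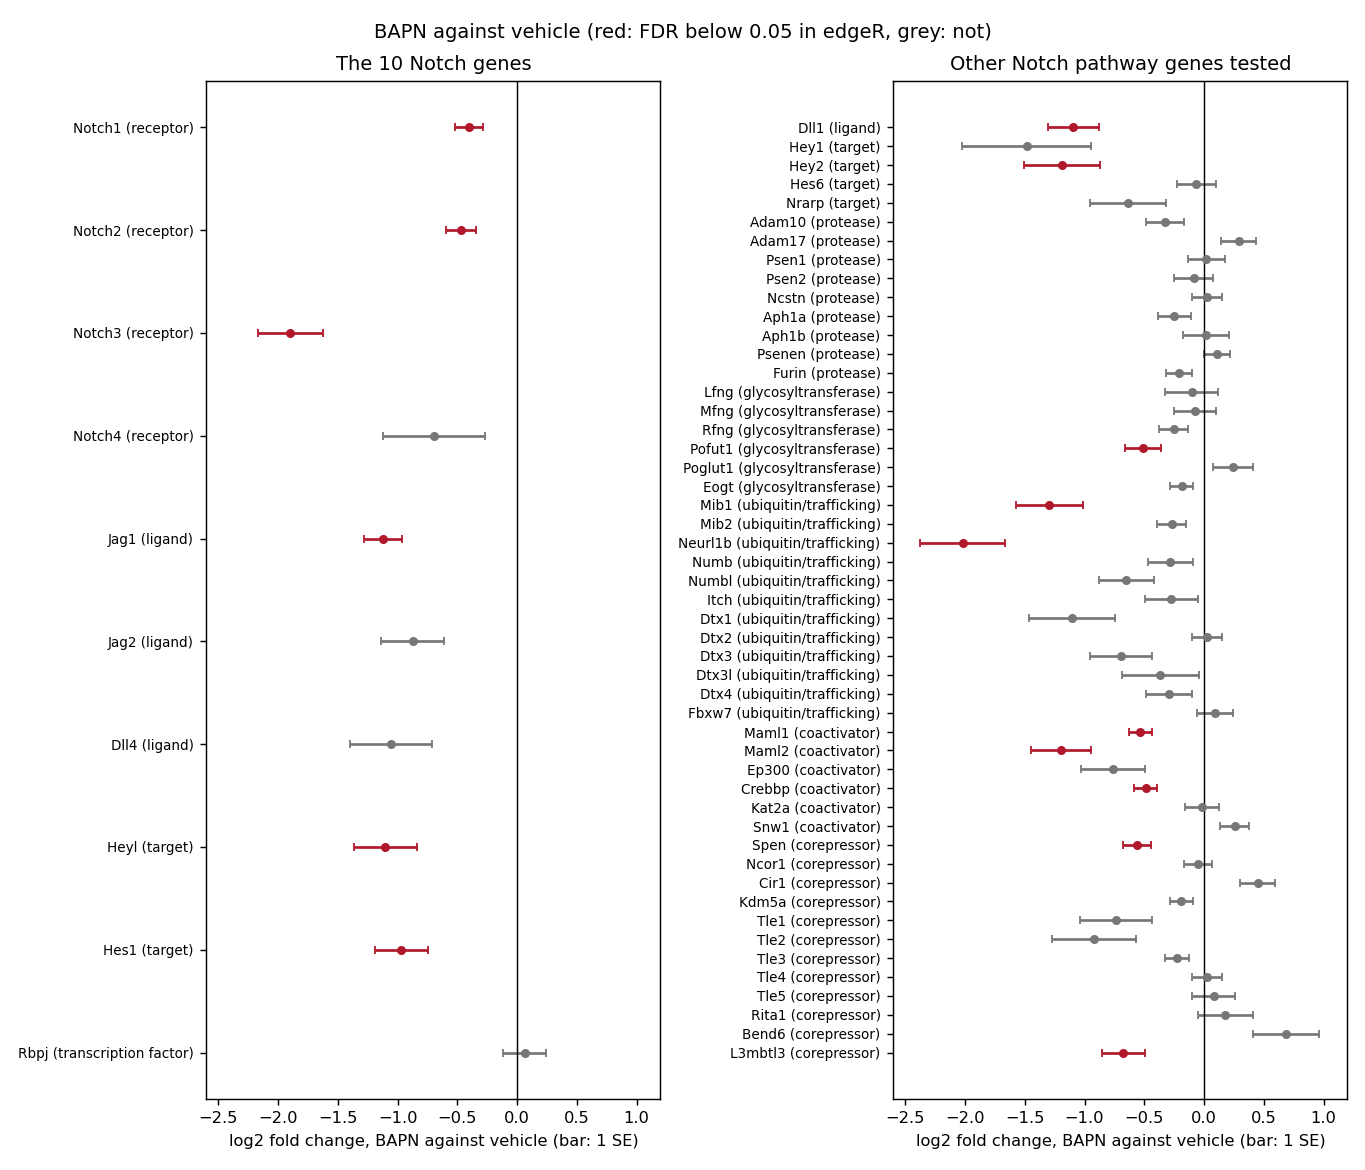
Log2 fold change of BAPN against Vehicle on the x axis, with the 10 Notch genes on the y axis of the left panel and other tested genes of the pathway, ordered by role, on that of the right panel. Points are fitted values over 8 rats, bars are 1 standard error either way, and red marks an edgeR FDR below 0.05. The red points all lie left of 0, and the protease points lie around 0.

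The rest of the pathway was taken from a list of 58 genes, of which 56 had a match by name and 51 were tested. edgeR called 11 of them lower (21.6%, against 9.25% of all tested genes) and 0 higher (against 7.5%). DESeq2 called 17 lower and 1 higher, against 15.1% and 12.3% of all tested genes. At an unadjusted edgeR p below 0.05, 19 of them were lower and 2 higher, against the 18.4% and 17.4% of all tested genes. Their median log2 fold change was -0.25, with 37 of the 51 below 0. Without Vehicle 1 the number called lower was 3, without BAPN 3 or BAPN 4 it was 7, and among females alone it was 0.

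The ligand Dll1 was the only one of the other ligands that was tested, and it fell (log2 fold change -1.09, standard error 0.21, edgeR FDR 0.0163). It was at 7.40, 6.11, 6.25 and 4.68 CPM in BAPN 1 to 4 and at 17.1, 10.2, 12.1 and 12.7 CPM in Vehicle 1 to 4, so all BAPN-treated veins were below all vehicle controls. Of the 4 other target genes tested, 1 was called lower (25%, against 9.25% of all tested genes), namely Hey2 (log2 fold change -1.19, standard error 0.32, edgeR FDR 0.0421). Hey2 was at 8.46, 17.4, 6.80 and 5.95 CPM with BAPN and at 28.0, 16.5, 21.8 and 21.8 CPM with vehicle, the BAPN 2 value lying just above that of Vehicle 2. The Hey2 call held in 2 of 8 fits that dropped 1 rat, those without BAPN 2 and without Vehicle 2, and was lost with sex as a covariate (edgeR FDR 0.0602). Hey1 (log2 fold change -1.48, edgeR FDR 0.0831) and Nrarp (log2 fold change -0.63, edgeR FDR 0.188), the latter a feedback inhibitor of the pathway, were not called by edgeR, and DESeq2 called Hey1 lower (FDR 0.025) but not Nrarp (FDR 0.142). Their values in Vehicle 4, 11.8 CPM for Hey1 and 29.9 CPM for Nrarp, were well above those of the other vehicle controls. Hes6, the remaining target tested, had a log2 fold change of -0.06 (edgeR FDR 0.789), and its groups overlapped.

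The proteases that cut the receptor showed no call in either direction. None of the 9 tested genes of the ADAM and γ-secretase group passed edgeR's test, an unadjusted p of 0.05 or DESeq2's test, and their log2 fold changes ran from -0.33 for Adam10 to 0.29 for Adam17, with a median of 0.01. Of 6 glycosyltransferases, which modify the receptor's EGF repeats, 1 was called lower (16.7%, against 9.25% of all tested genes). This was Pofut1, the enzyme that adds O-fucose (log2 fold change -0.51, standard error 0.15, edgeR FDR 0.0482). It was at 29.8 to 46.8 CPM with BAPN and at 47.0 to 61.9 CPM with vehicle. Its call was kept in 5 of 18 alternatives, among them 1 of the 8 that dropped a rat (without BAPN 1), and was lost with sex as a covariate (edgeR FDR 0.0933) and in thinned libraries (edgeR FDR 0.0538).

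Of 12 genes for ubiquitin ligases and trafficking proteins, 2 fell (16.7%, against 9.25% of all tested genes). Both encode ubiquitin ligases that act on Notch ligands in the sending cell. Neurl1b was at 6.14, 3.43, 2.38 and 2.76 CPM in BAPN 1 to 4 and at 15.5, 13.6, 9.18 and 21.4 CPM in Vehicle 1 to 4. Its log2 fold change of -2.02 was the lowest of the 51 genes (standard error 0.35, edgeR FDR 0.0127). Mib1 was at 18.3, 15.3, 8.56 and 14.6 CPM with BAPN and at 43.8, 28.8, 22.9 and 43.8 CPM with vehicle (log2 fold change -1.30, standard error 0.28, edgeR FDR 0.0196). In both genes the groups were apart in all 8 rats.

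3 of 6 coactivators fell (50%, against 9.25% of all tested genes). Maml1, a Mastermind protein that joins the RBPJ complex, was at 35.5 to 41.9 CPM with BAPN and 52.1 to 56.1 CPM with vehicle (log2 fold change -0.53, standard error 0.10, edgeR FDR 0.0139). Maml2 was at 6.97 to 14.7 CPM against 19.6 to 32.3 CPM (log2 fold change -1.20, standard error 0.25, edgeR FDR 0.0190), and the acetyltransferase gene Crebbp at 56.4 to 69.4 CPM against 85.7 to 90.4 CPM (log2 fold change -0.49, standard error 0.10, edgeR FDR 0.0166). For these 3 genes no BAPN-treated vein reached the lowest vehicle control.

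3 of 13 corepressors, which hold RBPJ targets silent without a signal, fell as well (23.1%, against 9.25% of all tested genes), among them Spen and L3mbtl3. Spen, which recruits deacetylases, was at 47.9 to 64.1 CPM against 69.1 to 86.7 CPM (log2 fold change -0.56, standard error 0.12, edgeR FDR 0.0199). L3mbtl3 was at 9.79 to 11.8 CPM against 11.6 to 20.4 CPM, with BAPN 2 above Vehicle 2 (log2 fold change -0.68, standard error 0.18, edgeR FDR 0.0392). Cir1, another corepressor, had its 4 BAPN values, from 37.1 to 56.0 CPM, above all vehicle values, from 31.6 to 35.4 CPM, and was not called by edgeR (log2 fold change 0.45, FDR 0.0529). DESeq2 called it higher (FDR 0.0241). Neurl1b and Maml1 were called in all 8 fits that dropped 1 rat. Without Vehicle 1, Dll1 (FDR 0.0525), Mib1 (FDR 0.0583), Maml2 (FDR 0.0579), Crebbp (FDR 0.0516) and Spen (FDR 0.0612) were no longer called by edgeR, and Spen was also lost without BAPN 3 (FDR 0.0523) or BAPN 4 (FDR 0.05004). L3mbtl3 was called in 1 of these 8 fits, that without Vehicle 2, and was lost with sex as a covariate (edgeR FDR 0.0892).

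The mural and endothelial sides of the pathway were then set beside each other. Notch3 and Heyl, the mural genes, were both lower with BAPN in all rats, and their mean log2 CPM was 5.88 ± 0.28 with BAPN and 7.32 ± 0.44 with vehicle (SD, n = 4 each). Notch4 and Dll4, the endothelial genes, averaged 3.28 ± 0.38 and 4.02 ± 0.87 log2 CPM (SD, n = 4 each), and their groups overlapped. The mural minus the endothelial mean was 2.43, 2.78, 2.46 and 2.73 on the log2 scale with BAPN and 3.24, 3.94, 3.00 and 3.05 with vehicle. Every vehicle control was above every BAPN-treated vein in this difference, which averaged 2.60 ± 0.18 with BAPN and 3.31 ± 0.43 with vehicle (SD, n = 4 each). The mean log2 fold change of the mural genes minus that of the endothelial genes was -0.62, and it stayed between -0.93 and -0.52 over the 18 alternatives.

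**Figure D3:**
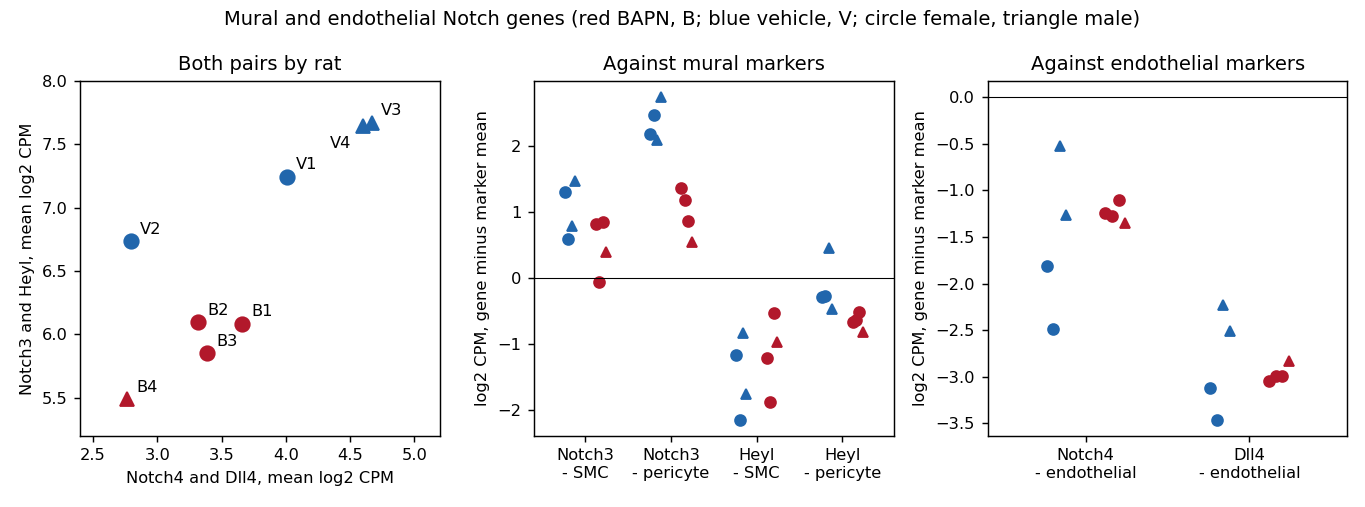
Left, mean log2 CPM of the endothelial genes Notch4 and Dll4 on the x axis against that of the mural genes Notch3 and Heyl on the y axis, with 1 point per rat (red BAPN, blue vehicle, circles females, triangles males), where the BAPN-treated veins lie below all vehicle controls on the y axis and Vehicle 2 lies within their range on the x axis. Middle and right, the log2 CPM of a Notch gene minus the mean of the smooth muscle (SMC), pericyte or endothelial markers in the same rat, where the groups are apart only for Notch3 and Heyl against the pericyte markers.

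The separation was seen in the receptors and not in Heyl with Dll4. The ratio of Notch3 to Notch4 CPM within a rat, compared across rats only, was 5.84, 7.16, 4.64 and 6.39 with BAPN and 14.2, 28.5, 7.83 and 16.4 with vehicle. All vehicle controls were above all BAPN-treated veins, with Vehicle 3 the nearest to them. The ratio of Heyl to Dll4 was 4.997, 6.66, 6.62 and 6.98 with BAPN and 6.32, 8.39, 8.23 and 4.17 with vehicle, where the groups overlapped and the lowest value was that of Vehicle 4.

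The markers of mural cells were set beside these genes. All 12 tested smooth muscle markers had a log2 fold change below 0 (median -1.29). edgeR called 8 of them lower (66.7%, against 9.25% of all tested genes). Their summed level was 1839 to 4781 CPM with BAPN and 3805 to 6932 CPM with vehicle. The most abundant of them, Tagln (log2 fold change -0.64, edgeR FDR 0.217) and Acta2 (log2 fold change -0.75, edgeR FDR 0.260), both contractile genes, were not called. BAPN 2 stood apart in both, with 1733 CPM of Tagln and 1311 CPM of Acta2 against 644 to 867 and 375 to 630 CPM in the other BAPN-treated veins. Without BAPN 2, Tagln was at -1.08 (edgeR FDR 0.0412), Acta2 at -1.28 (edgeR FDR 0.0638) and 11 of the 12 markers were called, while the number was 3 to 5 when BAPN 1, BAPN 3, BAPN 4, Vehicle 1, Vehicle 3 or Vehicle 4 was the rat left out. Of 10 pericyte markers, 7 had a log2 fold change below 0 and 3 above (median -0.66). The groups overlapped in 8, as they did in 8802 of the 11682 tested genes. edgeR called 3 lower (30%, against 9.25% of all tested genes). The summed levels of the pericyte markers were 1461 to 1758 CPM with BAPN and 1697 to 2290 CPM with vehicle. The most abundant pericyte markers were Anpep (log2 fold change 0.21, edgeR FDR 0.487) and Pdgfrb (log2 fold change -0.74, edgeR FDR 0.0711). Among females alone 0 genes of either list were called. The part of the marker levels in the results for Notch3 and Heyl was not tested.

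Set against the mean of the markers in the same rat, Notch3 differed between the lists. Its log2 CPM minus the pericyte mean was 0.99 ± 0.36 with BAPN and 2.37 ± 0.29 with vehicle (SD, n = 4 each), with no overlap. Minus the smooth muscle mean it was 0.50 ± 0.43 and 1.04 ± 0.41 (SD, n = 4 each), and the groups overlapped. For Heyl the difference from the pericyte mean was -0.66 ± 0.13 and -0.15 ± 0.41 (SD, n = 4 each) without overlap. Its difference from the smooth muscle mean was -1.15 ± 0.57 with BAPN and -1.48 ± 0.59 with vehicle (SD, n = 4 each). This mean was higher with BAPN, and the groups overlapped.

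Of 20 endothelial markers 18 were tested and 17 had a log2 fold change below 0 (median -0.77). edgeR called 7 of them lower (38.9%, against 9.25% of all tested genes). Their summed level was 817 to 1295 CPM with BAPN, lowest in BAPN 4, and 1461 to 2495 CPM with vehicle, lowest in Vehicle 2, the rat in which Notch4 and Dll4 were also lowest within the group. Robo4 was at 1 read in 1 library and at 0 in the other 7. The most abundant endothelial markers were Vwf, the von Willebrand factor gene (log2 fold change -1.99, edgeR FDR 0.0389), which reached 768 CPM in Vehicle 1 and 106 to 269 CPM in the other vehicle controls, and Tie1 (log2 fold change -0.32, edgeR FDR 0.198). Without Vehicle 1, Vwf was at -1.13 (edgeR FDR 0.067), and its call held in 3 of 8 fits that dropped 1 rat, those without Vehicle 2, Vehicle 3 or Vehicle 4. The number of endothelial markers called was 1 without BAPN 4 or Vehicle 1, 2 or 3 without BAPN 2, BAPN 3, Vehicle 3 or Vehicle 4, and 9 without Vehicle 2. Relative to the endothelial marker mean, Notch4 was at -1.25 ± 0.10 log2 CPM with BAPN and -1.52 ± 0.83 with vehicle, and Dll4 at -2.97 ± 0.09 and -2.83 ± 0.56 (SD, n = 4 each), with overlap in both. The part of the endothelial marker levels in the results for Notch4 and Dll4 was not tested.

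For the other cell types the vein segment could hold, edgeR called 1 of 6 arterial endothelial and 2 of 4 venous endothelial markers lower. It also called 1 of 9 fibroblast, 1 of 6 Schwann cell and 1 of 5 adipocyte markers lower. Over all tested genes edgeR called 9.25% lower and 7.5% higher, and DESeq2 15.1% and 12.3%. The fibroblast markers (11.1% lower by edgeR) and the macrophage markers (10% higher) were near these edgeR shares. DESeq2 called 5 of the 9 fibroblast and 3 of the 5 adipocyte markers lower, and 8 of the 9 fibroblast markers had a log2 fold change below 0 (median -0.64). edgeR called 1 of 10 macrophage and 3 of 7 lymphocyte markers higher, and DESeq2 called 1 and 4. The 1 tested keratinocyte marker, Dsg3, was also called higher, and it was at 925 and 694 reads in BAPN 1 and BAPN 2, 13 and 4 reads in BAPN 3 and BAPN 4 and 0 to 2 reads in the vehicle controls, so the call rests on a pair of libraries. Neither of the 2 tested skeletal muscle markers was called by edgeR, and 1 was lower at an unadjusted p below 0.05 and by DESeq2.

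The genes whose pattern over the 8 rats was most like that of Notch3 or Notch4 were found by the root mean square difference of log2 CPM after each gene's own mean was subtracted, among 11018 tested genes with a symbol. Those nearest to Notch3 were Tmem158 (0.195), Igf2, a growth factor gene (0.262), Apc2 (0.271), Cbx6 (0.274) and Mn1 (0.282). Those nearest to Notch4 were Tmem117 (0.246), Meox1 (0.253), Pycr1 (0.293), Bcl6b (0.294) and Dll4 (0.295). Dll4 thus stood at place 5 for Notch4 and at place 467 for Notch3. Heyl stood at place 758 for Notch3 (0.631) and at place 146 for Notch4 (0.448). The measure includes the size of the change between groups. The log2 fold change was -1.10 for Heyl, -1.90 for Notch3 and -0.70 for Notch4. The places alone therefore do not show which receptor Heyl followed from rat to rat.

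Within a group, the same rats had the lowest or the highest value in many of the 10 genes. BAPN 4, the male of its group, had the lowest BAPN value in 8 of the 10 genes, and BAPN 1 had the highest in 7. In the Vehicle group, Vehicle 2 had the lowest value in 7 genes and Vehicle 4 the highest in 5. How often these rats were lowest or highest over all tested genes was not counted. The mean log2 CPM of the endothelial markers was also lowest in BAPN 4 (4.85) and in Vehicle 2 (5.77) within their groups.

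**Figure D4:**
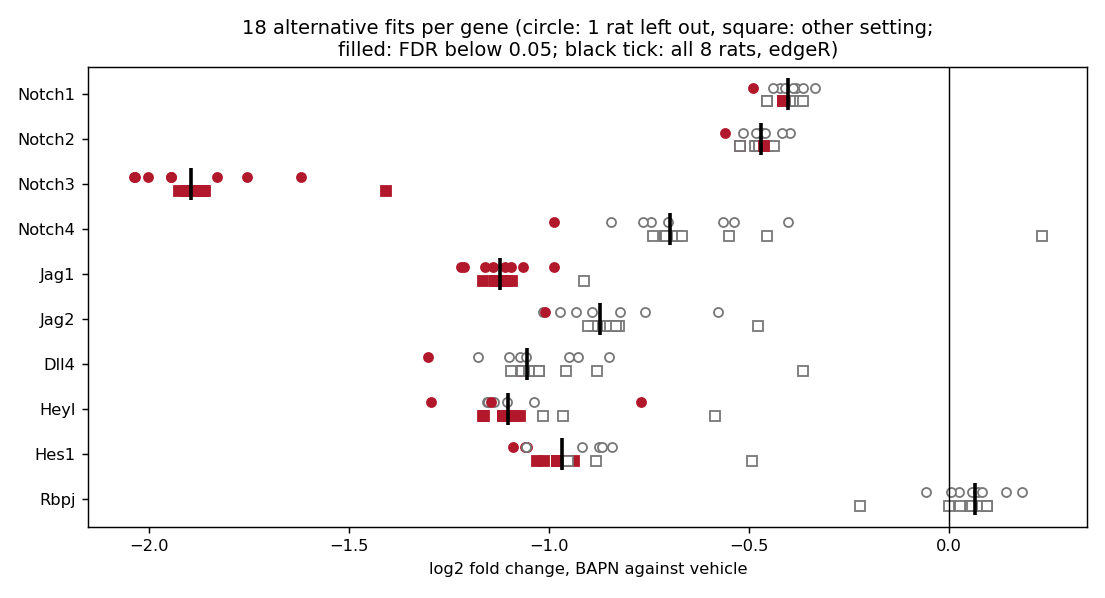
Log2 fold change of each of the 10 Notch genes on the x axis under the main comparison and the 18 alternatives, with genes on the y axis. The black tick is the main comparison, circles are fits with 1 rat left out, squares are other settings and filled points have an FDR below 0.05. Notch3 is filled throughout and Rbpj nowhere, and only Notch4 and Rbpj have points on both sides of 0.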

How the data were processed

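RNA was sequenced from outflow veins of 8 rats, 4 with BAPN and 4 with vehicle scaffolds, and group, replicate number and sex were taken from the labels. The authors deposited whole-number counts of reads per gene without normalization, 1 table per rat. They made ribosomal RNA-depleted stranded libraries from total RNA, and the submitters' processing notes name bcl2fastq 2.17, Trim Galore and STAR. The counting tool, strand setting and genome build are not given in the sources used here, so reads shared between overlapping genes or with an antisense gene cannot be told apart. The counts were used as deposited, with 0 columns left out.

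As in the study's methods, genes with a base mean under 100 (mean of counts divided by DESeq2 size factors) were left out. Groups were compared with edgeR 4.0.16 (TMM, quasi-likelihood F test, no covariate) in R 4.3.3, and p was adjusted by Benjamini-Hochberg over the 11682 genes tested. Standard errors came from limma 3.58.1 (voom), and log2 CPM used a prior count of 2. DESeq2 1.42.0, other scaling and filters, sex as a covariate, females alone, a replicate block, thinned libraries and each rat left out were the alternatives. Exact permutation tests ran over 70 arrangements and were two-sided. No pair of libraries of a group agreed within counting noise (chi-square per degree of freedom 68.58 to 320.8 over 12 pairs). Each library is labelled as its own rat. The steps were tested on simulated data.

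The 10 genes and all lists were chosen with earlier results of these data known. Named are the 10 genes, the other pathway genes called by edgeR, the 2 most abundant genes of the smooth muscle, pericyte and endothelial marker lists and the 5 nearest patterns of Notch3 and Notch4. The other marker lists are given by counts only, and 1 called corepressor counted in the pathway list is not reported here. In the protease group, which had no call, Adam17 is the most abundant. Adam10, Hey1, Hes6, Nrarp, Cir1, Robo4 and Dsg3 were picked once their values were known. The interaction of sex and treatment was tested after seeing the data.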

Additional observations from a re-analysis of the deposited data

How the results depend on the processing

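Of 180 values of the 10 genes over the 18 alternatives, 177 kept their direction. The others were Notch4 at 0.23 and Rbpj at -0.22 among females alone, and Rbpj at -0.058 without Vehicle 4 (-0.058 to 0.18 with 1 rat left out). The pericyte marker Anpep was at -0.16 among females alone. The number of the 10 genes called lower was 6, and it was 2 with sex as a covariate, 1 among females alone and 2 to 7 with 1 rat left out. Of the other pathway genes 11 were called lower, and DESeq2 called 17, females alone 0 and the fits with 1 rat left out 3 to 13. The number called higher was 0, and it was 1 by DESeq2 and 0 to 1 with 1 rat left out. Over all tested genes 1957 were called, against 3202 by DESeq2, 930 with sex as a covariate, 89 among females alone and 397 (without Vehicle 1) to 2215 with 1 rat left out. Smooth muscle markers called lower numbered 8, against 3 with sex, 0 among females and 3 to 11 with 1 rat left out. Endothelial markers numbered 7, against 3 with sex, 0 among females and 1 to 9 with 1 rat left out. Pericyte markers numbered 3, and 0 among females. With the replicate number as a block, 2 of the 10 genes, 5 other pathway genes, 556 of all tested genes, 4 smooth muscle, 1 endothelial and 1 pericyte marker were called. The numbers are not known to pair rats, since same-numbered rats correlated at 0.0944, -0.265, 0.269 and -0.14 in their deviations from the group means and 1 of 4 matched its own number best. Under other scaling and filters 4 to 6 of the 10 genes were called lower. Females alone leave 3 rats against 2, and the cause of the other changes was not tested. The lowest count behind a value of the 10 genes is 99 reads, for Dll4 in Vehicle 2.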

Other observations

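The response of the 10 genes was also set against sex, in an edgeR fit with a sex by treatment term that was chosen after seeing the data. The BAPN group holds 1 male. None of the 11682 tested genes passed an FDR of 0.05 for this term, and 1442 had an unadjusted p below 0.05. For the Notch genes the male minus female difference in log2 fold change was -1.34 for Notch3 (edgeR FDR 0.342), -2.12 for Notch4 (edgeR FDR 0.269), -1.53 for Dll4 (edgeR FDR 0.364), -1.11 for Heyl (edgeR FDR 0.394), -1.14 for Hes1 (edgeR FDR 0.269) and 0.69 for Rbpj (edgeR FDR 0.346). These are the 6 of the 10 genes with an unadjusted p below 0.05 for the term, and with 1 male in the BAPN group the values for males rest on BAPN 4.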
